A study of Gallus gallus with 2 samples.

Results

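Purkinje neurons of the embryonic day 7 (E7) chick cerebellum that held no transcript of NR2F2 and none of CDH6 were described here. They were selected on measured values: a cell had fewer than 10000 transcripts, FOXP2 at 20 or more unique molecular identifiers (UMIs) per 10000 UMIs of the cell, at least 1 UMI of SKOR2, and 0 UMIs of both NR2F2 and CDH6. The rule found 865 cells among 1728 E7 cells that passed the FOXP2 and SKOR2 steps (the Purkinje gate), 5703 E7 cells under the transcript ceiling, 7648 E7 cells and 15190 cells of the series. The study profiled single cells of wild-type chicken (Gallus gallus) cerebellum dissected at E6, E7, E8 and E9. Tissue was pooled before dissociation, per the labels, and polyadenylated RNA was barcoded with the Evercode WT Mini kit, in which cells pass through rounds of wells that each add a barcode. The cells of each stage entered through 3 first-round wells, and all stages were then split over 2 sublibraries. The E7 wells, A4, A5 and A6, and both sublibraries are therefore splits of 1 pool rather than separate embryos, no test between stages or cell sets was possible, and intervals cover counting error only.

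Purkinje neurons are the GABAergic output neurons of the cerebellar cortex. They are born in the ventricular zone, migrate outward, and settle in groups that later form parasagittal stripes, and in birds and mammals such groups differ in transcription factors, cadherins and guidance molecules well before the cortex is layered. SKOR2 is a transcriptional corepressor of young Purkinje neurons and FOXP2 is a forkhead factor that they keep. NR2F2 (COUP-TFII) is an orphan nuclear receptor and CDH6 is a type II cadherin, a homophilic adhesion molecule, and each marks some Purkinje groups and not others.

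The comparison cells were the other 863 E7 gate cells, which held at least 1 UMI of NR2F2 or CDH6: 319 had NR2F2 without CDH6, 462 had CDH6 without NR2F2 and 82 had both. As a description of what the rule used, FOXP2 in the 865 cells ranged from 20.03 to 295.2 UMIs per 10000 with a median of 57.7, and SKOR2 ranged from 1 to 12 UMIs with a median of 2. Close to the limits, 338 of the cells held a single SKOR2 UMI, 77 lay between 20 and 25 FOXP2 UMIs per 10000, and 88 cells that otherwise qualified lay between 15 and 20. A further 676 cells met each condition except the SKOR2 UMI. Of the comparison cells, 280 were set apart by a single UMI of NR2F2 or CDH6.

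Levels of cell type markers were read beside the Purkinje label. The summed level of 21 Purkinje genes in the gene table was 28040 CPM, the UMIs of a gene per 1000000 UMIs summed over a set of cells, in the 865 cells, 27290 CPM in the other gate cells and 11488 CPM in E7 cells outside the gate. SKOR2 and FOXP2 of the rule are in that sum, and a sum without them is not given here. The difference from cells outside the gate was therefore in part fixed by the rule and does not check the label. GAD2, which makes the transmitter GABA, stood at 1179 CPM and RORA, the orphan receptor needed for Purkinje maturation, at 2785 CPM. These 2 are examples from the list, given without a level in other cells, so they do not check the label. Of 14 genes of the Purkinje list compared with the other gate cells, 1 was higher and 4 were lower past the fold used below. Of all 6273 genes compared, 1.93% were higher and 2.9% lower. DAB1 and ITPR1 were among the lower ones. CALB1, the calcium buffer of mature Purkinje neurons, had 0 UMIs in the cells. Of the lists of other cell types, radial progenitor or glia was at 2675 CPM in the 865 cells, 2531 CPM in the other gate cells and 3305 CPM outside the gate. The GABAergic interneuron lineage was at 1487, 1401 and 1261 CPM, so it was not lower inside the gate. Further summed levels in the 865 cells and the other gate cells were 77 against 88 CPM for glutamatergic nuclear neurons, 109 against 113 CPM for cell division, 92 against 84 CPM for endothelium and 10 against 14 CPM for microglia or macrophages, with C1QA, C1QB, C1QC, CX3CR1 and SPI1 at 0 in the cells without NR2F2 and CDH6. The granule lineage list was higher in them, at 1577 against 972 CPM, with 2 of 7 compared genes above the fold used below and BARHL2 and MFNG at 0. In 3 wells its sum ranged from 1515 to 1691 CPM in these cells and from 926 to 1005 CPM in the others, and CNTN2, which is on that list, alone stood at 734.0 against 298.8 CPM. The ventricular zone progenitor list was likewise higher, at 214 against 121 CPM (200 to 238 against 111 to 138 CPM over the wells), through NHLH1 and NHLH2, with GSX1 at 0. What part such cells, or doublets, have in the results was not tested.

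Depth differed between the E7 sets, and W-linked RNA differed between stages and, by level, between the E7 sets. The intervals of the W-linked shares of the E7 sets overlapped (36.4 to 43.0% without NR2F2 and CDH6 and 32.4 to 38.9% in the other gate cells), but a share of cells with a UMI depends on depth. The 865 cells held a median of 5103 UMIs (1349 to 9980) and the other gate cells 5803 UMIs (1485 to 9990). The 4 W-linked genes UBAP2L2, HNRNPKL, SMAD7B and SPIN1L, which only female birds carry, gave a UMI in 39.7% of the cells without NR2F2 and CDH6 and in 35.6% of the others, but in 1.00% of all E6 cells, 46.2% of E7, 0.888% of E8 and 14.4% of E9 cells. Stage and the sex of the pooled embryos therefore cannot be told apart in comparisons between stages. Within E7, the summed level of these W-linked genes was 166.0 CPM without NR2F2 and CDH6 and 126.5 CPM in the other gate cells. It was higher in each well, at 163.0 against 128.7 CPM in A4, 151.2 against 119.9 CPM in A5 and 184.9 against 130.8 CPM in A6. Cell barcodes repeated between the sublibraries in 896 cases, and 142 of the 865 cells had such a barcode.

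The cells without NR2F2 and CDH6 made up 50.1% of the E7 gate (exact 95% binomial interval 47.7 to 52.4%). The share was 49.5% in well A4, 51.6% in A5 and 49.0% in A6, and 48.4% and 51.5% in sublibraries 1 and 2. The 5 values lay close together, and no well or sublibrary stood apart. By the same rule, the share was 63.1% at E6 (361 of 572 cells), 39.2% at E8 (82 of 209) and 31.9% at E9 (37 of 116), an order from E6 down to E9 in which E8 and E9 had overlapping intervals (32.6 to 46.2% and 23.6 to 41.2%). The 3 wells of E8 ranged from 32.9 to 50.7% and those of E9 from 24.1 to 41.5%. Among gate cells, the share with NR2F2 and without CDH6 was 4.90% at E6, then 18.5, 10.5 and 19.8% at E7, E8 and E9, and that with both genes was 1.75, 4.75, 17.2 and 22.4% in the same order.

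A count of 0 depends on depth, and the E7 share ran from 73.9% in gate cells under 2000 UMIs (17 of 23) through 62.3%, 53.1% and 44.4% to 32.2% in cells of 8000 to 10000 UMIs (77 of 239). NR2F2 and CDH6 were then read in 2000 UMIs drawn from every gate cell (23 shallower E7 gate cells dropped out). The shares were 69.2% for E6, 66.3% for E7, 48.5% for E8 and 42.5% for E9. After this thinning the E6 and E7 intervals overlapped (65.0 to 73.2% and 64.0 to 68.6%), whereas those of E8 (41.3 to 55.7%) and E9 (32.9 to 52.4%) lay below both. The FOXP2 and SKOR2 steps still used all UMIs of a cell, so which cells entered the gate was not matched for depth. Gate cells held a median of 3237, 5478, 4045 and 4680 UMIs from E6 to E9. Some of the 865 cells therefore cannot be told apart from cells whose NR2F2 or CDH6 transcripts were not sampled. NR2F2 in E7 gate cells that had it was a median of 2 UMIs, with 146 of 401 such cells at exactly 1, and CDH6 was likewise a median of 2, with 199 of 544 at 1.

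**Figure D1:**
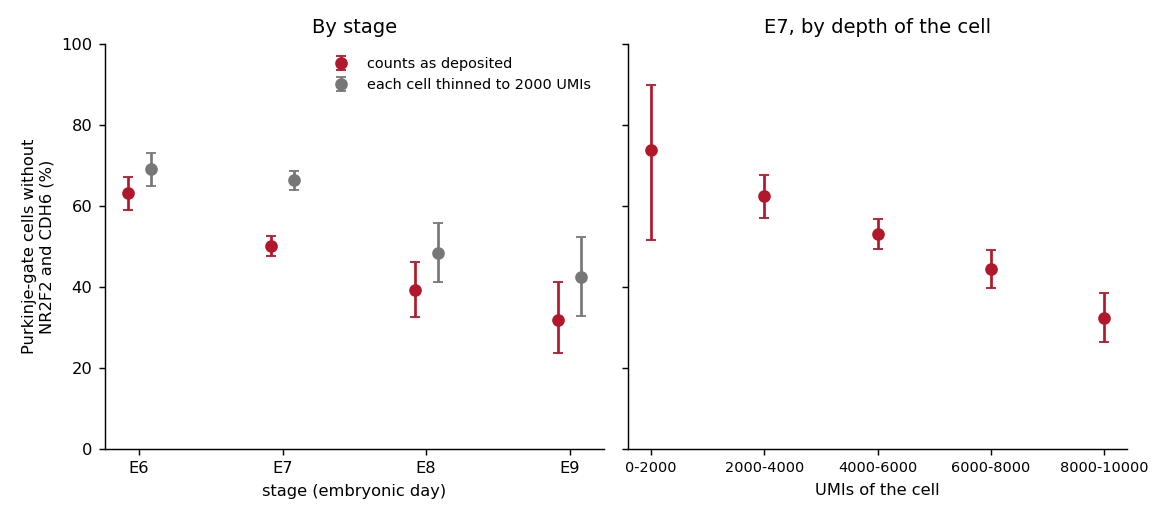
Share of Purkinje-gate cells with 0 UMIs of NR2F2 and CDH6, in percent, by stage (left; red, counts as deposited; grey, each cell thinned to 2000 UMIs) and at E7 by the UMIs of the cell (right); bars are exact 95% binomial intervals. The deposited share runs from 63.1% at E6 to 31.9% at E9, and within E7 from 73.9% in the shallowest to 32.2% in the deepest cells. Thinning applied to NR2F2 and CDH6 and not to the FOXP2 and SKOR2 steps.

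Against the other E7 gate cells, the cells without NR2F2 and CDH6 were higher in ROBO3, CNTN2, EFNA5 and NHLH1 and in the transcription factors PAX5 and EBF2, and lower in SHISA6, CNTN5, CDH18, TENM4 and GABRG3 and in the reelin adaptor DAB1. Differences were taken as log2 ratios of summed CPM with 5 CPM added to each side, and a gene was called at 1.5-fold or more with 50 UMIs over both sets and 20 CPM in the higher one. Of 6273 genes compared, 121 were called higher (1.93% of them) and 182 lower (2.9%), and the median log2 ratio was 0.03. In 120 of the 121 and 178 of the 182, the sign was the same in both sublibraries and all 3 wells. The share of all 6273 genes with 1 sign, or with wells that do not overlap, is not given here. Such counts for the named genes are therefore a description and do not set them apart from other genes. Without the transcript ceiling, which brings in E7 cells of 10000 or more UMIs, 22 genes were called higher, each of them among the 121, and 186 lower, of which 57 were among the 182.

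ROBO3, a receptor of the roundabout family that governs midline crossing of commissural axons in mammals, was the highest of the named genes. Its level was 160.3, 84.9 and 117.2 CPM in wells A4, A5 and A6 of the cells without NR2F2 and CDH6, against 42.9, 32.4 and 22.4 CPM in the other gate cells. The lowest of the first 3 wells lay above the highest of the others, and the log2 ratio was 1.73 (exact 95% interval of the ratio without the added 5 CPM, 1.62 to 2.13). PAX5, a paired-box factor of the midbrain-hindbrain boundary that lies on chromosome Z, stood at 508.3, 508.8 and 596.9 CPM against 240.9, 199.0 and 166.9 CPM, a log2 ratio of 1.39 (1.30 to 1.51). CNTN2, an adhesion molecule on growing axons, stood at 687.8, 642.1 and 878.2 CPM against 309.2, 285.9 and 300.5 CPM, a log2 ratio of 1.28 (1.21 to 1.38). Each of these 3 genes separated the sets in every well. The highest and lowest genes were named only if their sign was the same in every well and both sublibraries. The direction within each well was therefore fixed by that choice. Wells that do not overlap go further than the choice required, but it favours them. The wells are also splits of the same pool, so their separation is a description.

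EBF2, a helix-loop-helix factor that in the mouse marks Purkinje neurons of the zebrin-negative stripes, had 4562, 5015 and 4543 CPM against 2262, 2756 and 2149 CPM in wells A4 to A6, a log2 ratio of 0.98 (0.95 to 1.02). EFNA5, an ephrin ligand that repels growth cones and lies on chromosome Z, had 903.1, 1063 and 860.8 CPM against 452.0, 530.4 and 448.5 CPM, a log2 ratio of 0.98. SPON1, which encodes the secreted matrix protein F-spondin, had 447.8, 459.2 and 424.0 CPM against 251.7, 237.9 and 133.6 CPM, a log2 ratio of 1.08. Wells did not overlap for these genes either, which the choice of genes by sign favours. The remaining 6 of the 12 highest were ANO4 (an anoctamin membrane protein, 181.6 against 67.3 CPM), PNOC (the precursor of the neuropeptide nociceptin, 161.4 against 63.8 CPM), the helix-loop-helix factors NEUROD6 (78.9 against 34.7 CPM) and NHLH1 (32.5 against 13.5 CPM), THSD7A (a thrombospondin-domain protein, 1078 against 539.7 CPM) and the zinc finger factor ST18 (60.5 against 28.2 CPM). Their log2 ratios ran from 0.98 for ST18 to 1.37 for ANO4, and in each the wells of the 2 sets did not overlap. Without the ceiling, NHLH1 stood at 0.25, ST18 at 0.02 and EFNA5 at 0.54, under the fold.

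SHISA6, an auxiliary protein of AMPA-type glutamate receptors, was the lowest of the named genes. It had 148.6, 154.9 and 162.1 CPM in wells A4 to A6 of the cells without NR2F2 and CDH6 and 719.4, 569.9 and 815.5 CPM in the other gate cells, a log2 ratio of -2.14 (-2.30 to -2.06). Most of that contrast lay in cells with NR2F2, which had 1269 CPM, against 286.4 CPM in those with CDH6 alone. CNTN5, a contactin of the neuronal surface, had 1364, 684.8 and 602.9 CPM against 2939, 2214 and 2831 CPM, a log2 ratio of -1.60 (-1.66 to -1.56). DAB1, the intracellular adaptor of the reelin receptors, which guides Purkinje migration, had 484.9, 479.7 and 334.3 CPM against 1354, 968.5 and 1371 CPM, a log2 ratio of -1.50 (-1.58 to -1.44). The wells of the sets were again apart for these 3 genes, which the choice of genes by sign favours.

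MEF2C, a MADS-box factor on chromosome Z, had 90.1, 83.7 and 50.9 CPM in wells A4 to A6 against 321.1, 218.1 and 229.4 CPM in the other gate cells, and its level was 107.2 CPM with NR2F2 alone and 320.4 CPM with CDH6 alone. ADCY8, a calcium-stimulated adenylyl cyclase, was 23.9 against 98.8 CPM and was likewise high with CDH6 alone (128.9 CPM) and not with NR2F2 alone (37.7 CPM). Both genes were among the leading genes of cluster 6 of the clusters described below. ADCY8 had 550.2 CPM there and 19.0 CPM in the other gate clusters, and MEF2C 968.6 and 98.7 CPM. In cluster 3, which also carried CDH6, the cells with NR2F2 or CDH6 had ADCY8 at 21.1 CPM. The other genes of the 12 lowest were ABI3BP, FSTL4, the type II cadherin CDH18, the GABA receptor subunit GABRG3, the teneurin TENM4, the glypican GPC3 and C8B, a complement component, with log2 ratios from -1.61 for ABI3BP to -1.36 for GPC3. In RefSeq's GRCg7b annotation, C8B (chromosome 8, 25513182 to 25528926) is the neighbour of DAB1 (25533715 to 25906038), and both were lower by similar amounts (-1.52 and -1.50), and whether reads of one were counted to the other was not tested. ABI3BP came to -0.46 without the ceiling.

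**Figure D2:**
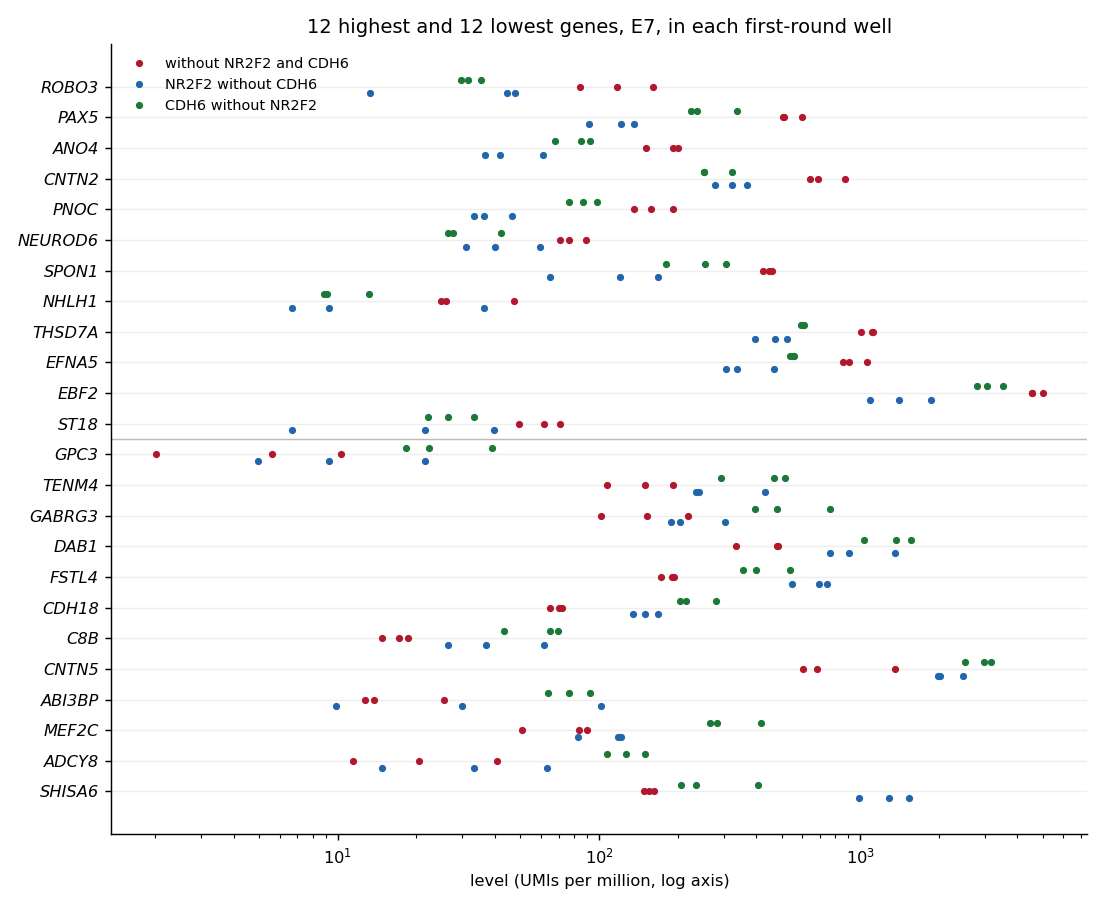
Level in CPM (UMIs per 1000000 UMIs, log axis) of the 12 highest (top) and 12 lowest (bottom) genes in the E7 cells without NR2F2 and CDH6 (red), with NR2F2 only (blue) and with CDH6 only (green); each point is 1 of the 3 first-round wells. ROBO3 and CNTN2 in red lie to the right of both other sets, CNTN5 and DAB1 to their left, and SHISA6 sets the NR2F2 cells apart at 1269 CPM.

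The W-linked split did not turn any of these directions. Among cells with a W-linked UMI, PAX5 had a log2 ratio of 1.04 and among cells without one 1.59. The same pair of values was 1.29 and 2.11 for ROBO3, 0.82 and 1.09 for EBF2, 0.81 and 1.10 for EFNA5, -1.83 and -2.27 for SHISA6 and -1.61 and -1.73 for MEF2C. Shares of cells with a UMI were also read at 2000 UMIs per cell, beside 107 E7 cells with 3 or more endothelium markers (median depth 16464 UMIs) in which these neuronal genes are not expected. Those cells are deep and may hold neuronal RNA or doublets, which was not tested. EBF2 was found in 92.1% of the cells without NR2F2 and CDH6, 72.7% of the other gate cells and 51.4% of those endothelium-marker cells (95.8, 87.9 and 81.3% without thinning). In 43 E7 cells with 3 or more microglia or macrophage markers (median 6066 UMIs) it was found in 51.2% after thinning. ROBO3 was found in 10.4% of the cells without NR2F2 and CDH6 (interval 8.41 to 12.6%), 3.15% of the other gate cells, 7.48% (3.28 to 14.2%) of the endothelium-marker cells and 9.30% (2.59 to 22.1%) of the microglia-marker cells. Unthinned, at unequal depth, these shares were 16.4, 7.88, 21.5 and 25.6%. By share of cells, ROBO3 in the cells without NR2F2 and CDH6 was thus not set apart from the reference sets. Both reference sets also lay above the other gate cells after thinning, so they cannot serve as a background level for ROBO3. SHISA6 was found in 14.9% (12.5 to 17.4%), 36.6%, 15.9% and 2.33% (0.06 to 12.3%) of the same 4 sets (25.5, 48.4, 47.7 and 18.6% without thinning), and the 2 reference sets differ too much to place the cells without NR2F2 and CDH6 against a background. DAB1 was found in 28.3, 51.5, 54.2 and 32.6% (42.4, 69.3, 81.3 and 48.8% without thinning), and here too the reference sets differed.

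The cells without both genes were then set against each positive group on its own. The genes in the next counts were chosen because the positive groups differ, which by itself places a further set of gate cells between them for many, so the counts are a description. Among 318 genes that were 1.5-fold or more higher with NR2F2 alone than with CDH6 alone, their level was between the 2 groups for 224, below both for 74 and above both for 20. Among 285 genes higher with CDH6 alone, it was between for 197, above both for 54 and below both for 34. Against NR2F2 alone, 269 genes were called higher (4.24% of 6351) and 293 lower (4.61%). Against CDH6 alone, 172 were called higher (2.74% of 6266) and 178 lower (2.84%). These 2 comparisons share the cells without both genes, and the groups differ in size, so the counts were not set against each other.

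The cells without both lay 1.5-fold or more above each positive group in 61 genes, 1.01% of 6027. They lay 1.5-fold or more below each in 59 genes, 1.05% of 5635. The 8 furthest above were ROBO3, PAX5, ANO4, CNTN2, ST18, ZBTB32, GFRA1 and SOX13. GFRA1, the co-receptor of the trophic factor GDNF, had 642.1 CPM against 328.5 CPM with NR2F2 and 346.5 CPM with CDH6 alone. ZBTB32, a zinc finger repressor, had 43.2 against 19.4 and 21.0 CPM, and SOX13, a SOXD-group factor, 42.8 against 21.5 and 20.3 CPM. SOX13 was the only 1 of the 8 whose wells overlapped those of the other gate cells (29.8 to 52.9 against 16.8 to 29.9 CPM), and how often wells overlap among all compared genes is not given here. Without the ceiling, the log2 ratios of ZBTB32 and SOX13 against the other gate cells came to 0.56 and 0.20, under the fold.

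Among the 8 furthest below both were CNTN5, C8B, CDH18, FSTL4, DAB1, TENM4 and PCDH11X. PCDH11X, a delta-protocadherin, had 651.3 CPM against 1655 CPM with NR2F2 and 1542 CPM with CDH6 alone, nearly the same distance from each. CDH18 had 69.1 against 151.3 and 232.1 CPM, and TENM4 149.3 against 302.1 and 428.7 CPM. For DAB1 the levels were 433.8, 1008 and 1329 CPM, and for CNTN5 874.5, 2155 and 2893 CPM. The 82 cells that carried both NR2F2 and CDH6 were also above the cells without them for these genes, with 1527 CPM for DAB1 and 3265 CPM for CNTN5. Without the transcript ceiling 11 genes were above both and 36 below both, all 11 and 14 of the 36 shared with the counts given first.

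**Figure D3:**
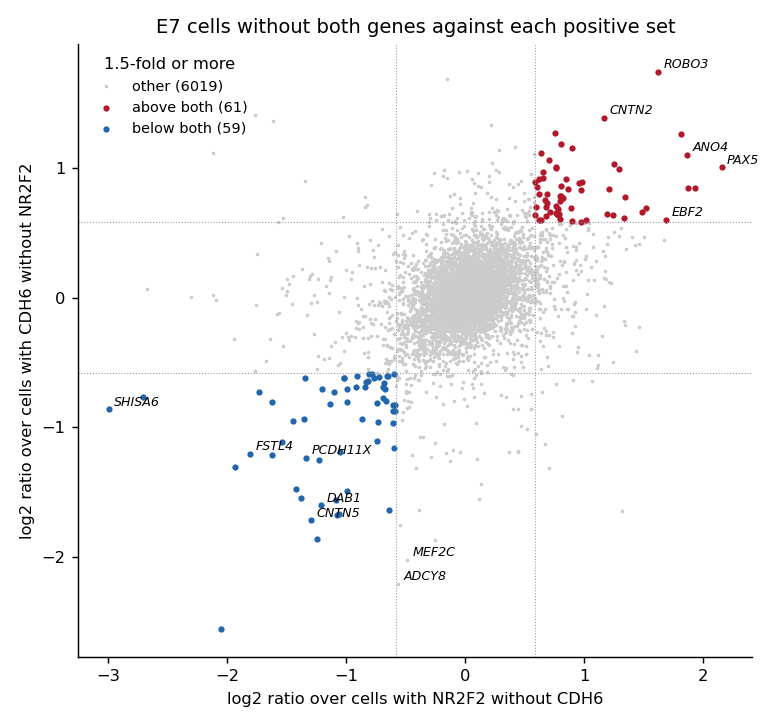
log2 ratio of the cells without NR2F2 and CDH6 over cells with NR2F2 only (horizontal) and over cells with CDH6 only (vertical) for each gene compared at E7; dotted lines mark 1.5-fold. The 61 genes above both are red and the 59 below both blue. MEF2C and ADCY8 lie beyond the lower 1.5-fold line on the vertical axis only, and were also lower, by less than that fold, on the horizontal axis.

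The genes were then read by function, in lists counted against the other E7 gate cells, for which all compared genes gave 1.93% higher, 2.9% lower and a median log2 ratio of 0.03. Transcription factors that differ among Purkinje groups or work in their development had 41 of 53 members compared, 5 higher and 2 lower, with a median of 0.10. The higher 5 were EBF2, BCL11B (322.6 against 181.9 CPM), RUNX1T1 (1094 against 647.1 CPM), CUX2 (256.8 against 155.5 CPM) and EN1 (37.1 against 21.6 CPM), the engrailed factor that helps set the cerebellar stripes in the mouse. BCL11B, RUNX1T1 and CUX2 followed one order: lowest with NR2F2 alone, intermediate with CDH6 alone and highest without both. RUNX1T1, for example, had 394.8, 821.2 and 1094 CPM in that order, and BCL11B 110.9, 231.7 and 322.6 CPM. The lower 2 were FOXP4 (205.5 against 353.9 CPM), a forkhead partner of FOXP2 that was high with CDH6 alone (477.2 CPM), and NR2F1 (32.5 against 86.2 CPM), the close relative of NR2F2, which was high with NR2F2 alone (157.3 CPM).

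Genes of newborn neurons had 10 of 20 members compared, 3 higher and 0 lower, with a median of 0.36. The 3 were ROBO3, NHLH1 and its relative NHLH2 (157.4 against 80.6 CPM). NHLH1 and NHLH2 are helix-loop-helix factors expressed as neurons leave the cell cycle. NHLH1 came to 0.25 without the ceiling, under the fold. Among the cells without NR2F2 and CDH6, cluster 8 of the clusters described below had NHLH1 at 227.4 CPM, and each other cluster had 29.9 CPM or less. ROBO3 was likewise at 968.5 CPM in cluster 8 and at 125.3 CPM or less elsewhere. Values for SOX11, a factor of immature neurons, were 684.8 against 510.2 CPM, under the fold, and for the cytoskeletal gene STMN1 201.5 against 204.3 CPM. General neuronal maturation genes had 25 of 33 compared, 0 higher and 2 lower, with CAMK2A (40.1 against 64.2 CPM) among them and a median of -0.04.

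In the list of Purkinje maturation and glutamate signalling, 22 of 35 members were compared, 11 were lower and 1 higher, with a median of -0.57. The phospholipase PLCB4 had 658.5 against 1139 CPM, and the calcium release channel ITPR1, which acts after it, 92.4 to 109.4 CPM over the wells against 164.8 to 173.8 CPM. The scaffold HOMER3 had 35.3 against 68.9 CPM. Further lower genes were HOMER2, DAB1, the calcium channel CACNA1G, the potassium channel KCNMA1, the kainate receptor GRIK1 and the Purkinje glutamate transporter SLC1A6, with log2 ratios from -1.50 for DAB1 to -0.70 for KCNMA1. HOMER3 followed 1 positive group, at 109.3 CPM with NR2F2 alone and 34.8 CPM with CDH6 alone. ITPR1 (182.6 and 159.7 CPM) and PLCB4 (1164 and 1032 CPM) were high in both. The higher gene was the AMPA receptor subunit GRIA1 (79.2 against 44.4 CPM).

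Cell adhesion genes were counted in 3 lists, and most of their members did not reach the fold. Among cadherins other than CDH6, which act as homophilic labels of Purkinje groups in the chick, 10 of 16 were compared, 4 were lower and 0 higher, with a median of -0.37. CDH11 (390.6 against 664.7 CPM) and CDH12 (93.0 against 162.0 CPM) were highest with NR2F2 alone, at 1113 and 209.5 CPM, and CDH10 (16.0 against 36.5 CPM) and CDH18 with CDH6 alone. Of 8 delta-protocadherins compared among 10, 3 were lower, PCDH1, PCDH7 and PCDH11X, and 0 higher, with a median of -0.14. Of 34 contactins, teneurins and synaptic adhesion genes compared among 42, 8 were lower and 3 higher, with a median of -0.09. The higher 3 were CNTN2, NCAM2 (4315 against 2588 CPM) and ALCAM (162.7 against 101.6 CPM), immunoglobulin-family molecules found on growing axons. The lower 8 were CNTN3, CNTN4, CNTN5, CNTNAP4, TENM4, FLRT2, LSAMP and NTM. LSAMP showed the sharpest split between the positive groups, 1869 CPM with NR2F2 alone and 195.2 CPM with CDH6 alone, and the cells without both lay between at 427.6 CPM.

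Guidance genes divided. Of 26 axon guidance genes compared among 39, 3 were higher and 6 lower, with a median of -0.15. The higher genes were receptors and a repulsive membrane ligand: ROBO3, the plexin PLXNA2 (139.0 against 82.4 CPM) and RGMB (264.0 against 162.0 CPM), which is Z-linked. The lower genes were SLIT3, UNC5B, DSCAM (154.2 against 274.5 CPM), NRP1 (47.1 against 82.9 CPM), SEMA3D (18.9 against 37.8 CPM) and SEMA3E. Wells overlapped for SLIT3 and SEMA3E. Of 13 EPH receptors and ephrins compared among 18, EFNA5 was higher and 0 were lower, with a median of 0.06.

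Signals and trophic factors had 16 of 45 compared, 1 higher and 6 lower, with a median of -0.23. TAFA1, a secreted chemokine-like protein, was higher (746.0 against 400.4 CPM), and its relatives TAFA2 and TAFA5 (653.5 against 1016 CPM) were lower together with WNT7B (104.8 against 178.2 CPM), RSPO2, NRG3 (415.3 against 714.4 CPM) and CXCL12. Receptors and cyclic nucleotide enzymes had 22 of 38 compared, with GFRA1, GPR146 and ADCY2 higher, FGFR2, GABBR2, PDE3A, ADCY8 and PRKG1 lower, and a median of -0.03. FGFR2 (31.4 CPM against 149.7 CPM with NR2F2 alone and 31.9 CPM with CDH6 alone) differed from the NR2F2 cells only. Ion channels and transmitter receptors had 43 of 51 compared, 3 higher and 7 lower, with a median of -0.22. The metabotropic receptors GRM5 (391.9 against 215.4 CPM) and GRM8 (31.1 against 16.8 CPM) were higher with GRIA1, while GRM7 (122.8 against 270.0 CPM), CACNA1C (578.5 against 975.6 CPM), CACNA2D2, GABRB2, GABRG3 and GRIN2A (69.3 against 151.2 CPM) were among the lower ones.

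**Figure D4:**
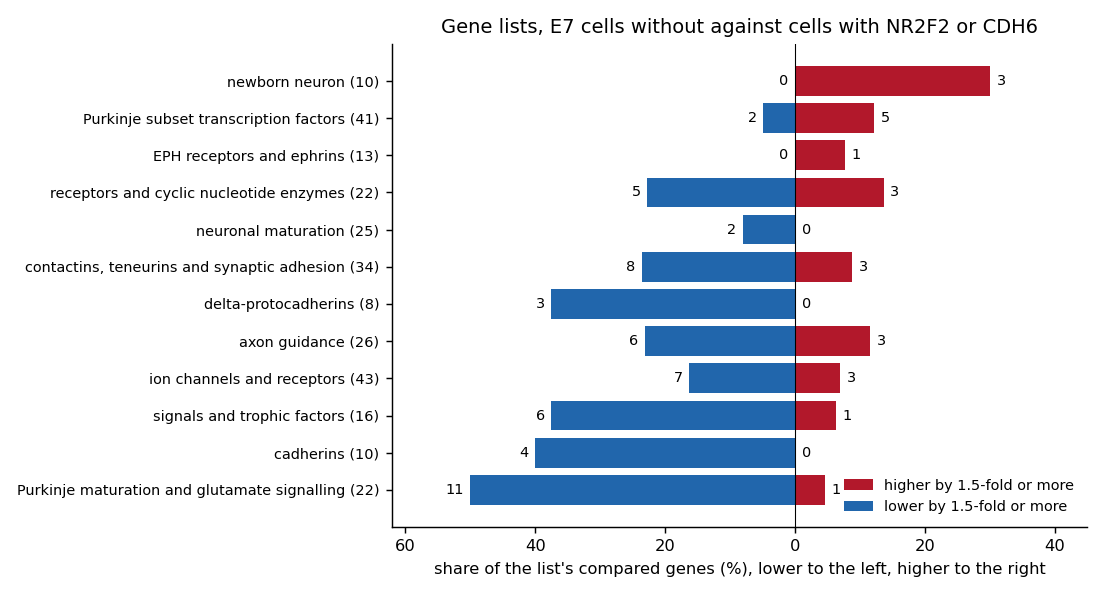
Share of each list's compared genes (number in brackets) that were called higher (red, right) or lower (blue, left) by 1.5-fold or more in E7 cells without NR2F2 and CDH6 against the other E7 gate cells; digits give the number of genes. The Purkinje maturation list has 11 lower and 1 higher, and the newborn neuron list 3 higher and 0 lower. ROBO3 and NHLH1 of the newborn neuron list were highest in cells of cluster 8.

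The 1728 gate cells were also clustered without NR2F2, CDH6, SKOR2 and FOXP2, without the 4 W-linked genes and without mitochondrial genes, to see how the cells without NR2F2 and CDH6 spread. They fell into many clusters rather than 1. Of 11 clusters, 5 held them at 64.2% or more of their cells and together most of the 865. Cluster 2 (268 cells, led among named genes by ANO4, CHST8 and PTH2R) was 80.6% cells without both (interval 75.3 to 85.2%), and cluster 5 (173 cells, led by SPON1, SV2C, CNTFR and PAX5) 72.3%. Cluster 8 (96 cells, led by ROBO3, ST18 and NHLH1, with DMBX1 and PAX3) was 71.9%. Its outline depended on the clustering settings. With 1000 variable genes ROBO3 led a cluster of 367 cells (76.0% without both). With Z- and W-linked symbols left out it led a cluster of 270 cells (76.7%). At Leiden resolution 1 it led a cluster of 111 cells (87.4%), and ST18 led a separate cluster of 49 cells (49.0%). Cluster 1 (276 cells, with PCDH10, GPC6 and IGF2 among its leading genes) was 64.9% and cluster 9 (81 cells, led by STAB1, DSE and DCBLD1) 64.2%. These 5 clusters held 24.97, 14.5, 7.98, 20.7 and 6.01% of the 865 cells in the order given. Clusters 1 and 9 also differed in W-linked RNA, with a UMI in 15.6 and 81.5% of their cells.

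Levels within the cells without NR2F2 and CDH6 therefore varied widely. ROBO3 was 968.5 CPM in the cells of cluster 8, 125.3 CPM in cluster 2 and 29.7 CPM or less in clusters 1, 5 and 9. CNTN2 ran from 2400 CPM in cluster 8 and 1328 CPM in cluster 2 to 196.6 CPM in cluster 9. SPON1 and PAX5 were highest in cluster 5, at 1821 and 1408 CPM, and PAX5 was 38.6 CPM in cluster 9. EBF2 was at 4002 CPM or more in the cells of all 5 of these clusters, with its highest level of 7759 CPM in cluster 5. It was not particular to them, with 4585 CPM in the cells without both genes of cluster 3. Cells with NR2F2 or CDH6 had EBF2 at 4533, 4285, 6197, 3090 and 4313 CPM in clusters 1, 2, 5, 8 and 9. In cluster 9 that was above the cells without both. ROBO3, CNTN2, SPON1 and PAX5 were among the genes used to make the clusters and EBF2 was not, and all differences between clusters are a description.

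Clusters 3, 4, 6 and 7 held fewer of the cells, 30.2, 14.5, 24.3 and 36.8%. Cluster 4 carried NR2F2 at 807.9 CPM with SHISA6 and BCL6 among its leading genes, and clusters 3, 6 and 7 carried CDH6 at 585.6, 945.4 and 476.1 CPM. In cluster 4 the cells that lacked both genes had SHISA6 at 1130 CPM, beside 2036 CPM in the cells with either gene. In cluster 6 they had CNTN5 at 14147 CPM beside 13303 CPM, far above its level in the other clusters. There, ADCY8, MEF2C, GPC3 and PCDH11X stood at 337.4, 436.9, 49.8 and 4950 CPM in the cells without both. The cells of cluster 6 with either gene had 610.4, 1119, 137.7 and 5301 CPM. PCDH11X was also high in cluster 7, at 3200 CPM beside 3702 CPM. Clusters 3, 4, 6 and 7 held 8.55, 3.93, 4.28 and 4.51% of the 865 cells. Clusters 10 (78 cells, 44.9%, led by PLSCR5, SOX6 and RFX4, genes of progenitors or glia among them, median 7614.5 UMIs) and 11 (18 cells, 27.8%, with LMX1A, SLC17A6 and MEIS2 of glutamatergic nuclear neurons) held 35 and 5 of the 865, with summed Purkinje lists of 16741 and 17131 CPM. With both left out, 146 genes were called higher and 198 lower, 114 and 176 of them shared with the full set. Clusters 7 and 8 also stood low for the Purkinje list, at 18477 and 20575 CPM. Cluster 7 held the interneuron lineage list at 4398 CPM. Cluster 8 held the ventricular zone progenitor list at 708 CPM, with NHLH1 of that list among its 10 leading genes. It supplied 362 of the 545 ROBO3 UMIs of the cells without NR2F2 and CDH6. Only cluster 7 had a gene of the Purkinje list, CNTNAP4, among its 10 leading genes, so the lack of one does not set cluster 8 apart. Without cluster 8, which ROBO3 itself leads, the log2 ratio of ROBO3 was 1.01 and that of ST18 0.42, under the fold, and 110 genes were higher and 170 lower, 101 and 164 of them shared. Without clusters 7, 8, 10 and 11, ROBO3 was 1.03 and ST18 0.21, and 150 genes were higher and 210 lower, 101 and 170 of them shared.

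**Figure D5:**
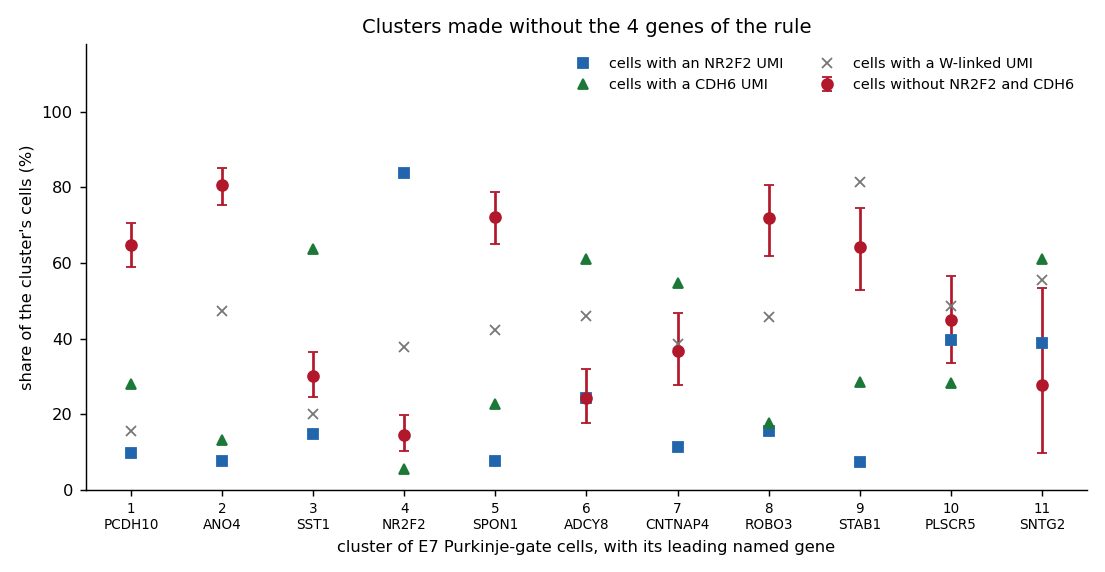
Share of each cluster's cells, in percent, without NR2F2 and CDH6 (red, with exact 95% binomial intervals), with an NR2F2 UMI (blue squares), with a CDH6 UMI (green triangles) and with a W-linked UMI (grey crosses). Clusters 1, 2, 5, 8 and 9 hold the cells without both at 64.2 to 80.6%, and clusters 1 and 9 differ in W-linked RNA (15.6 and 81.5%).

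Across stages, the E7 cells without NR2F2 and CDH6 were set beside cells of the same rule at E6 (361 cells, median 3095 UMIs) and at E8 and E9 together (119 cells, median 3883 UMIs). Against E6, 1015 genes were higher at E7 (16.2% of 6279) and 488 lower (7.77%), and E7 against E8 and E9 gave 1624 higher (25.3% of 6427) and 898 lower (14%). Depth, the sex of the embryos and stage cannot be told apart in these counts, and both comparisons share the E7 cells. The named genes higher at E7 than at E6 were CRHR2, a receptor of stress peptides (7.4 to 596.5 CPM), the cadherin CDH13 (86.8 to 1545 CPM), the Z-linked convertase PCSK5 (61.2 to 1032 CPM), SPON1 (27.3 to 444.1 CPM), PDE3A (3.3 to 94.95 CPM) and the W-linked UBAP2L2 (2.5 to 89.7 CPM). The lower genes at E7 were FOXP1, a forkhead relative of FOXP2 (646.0 CPM at E6 and 108.5 CPM at E7), MEGF11 (408.6 to 70.6 CPM), SGCZ (424.3 to 74.6 CPM), USP53 (269.6 to 45.2 CPM), PRICKLE1 (101.7 to 12.9 CPM) and IYD (51.3 to 5.7 CPM).

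Toward E8 and E9, ROBO3 went from 119.5 to 2.0 CPM, CNTN2 from 734.0 to 100.9 CPM, the repulsive ligand RGMB from 264.0 to 33.6 CPM, SERTM1 from 49.1 to 2.0 CPM and CACFD1 from 64.3 to 4.0 CPM. The W-linked HNRNPKL went from 44.5 CPM to 0 UMIs. The genes lowest at E7 against E8 and E9 were TENM4 (149.3 to 1088 CPM), DAB1 (433.8 to 3051 CPM), IL1RAPL2 (52.2 to 419.5 CPM), CNTNAP4 (20.8 to 184.0 CPM), ANOS1 (6.8 to 83.1 CPM) and CCDC85A (8.1 to 124.7 CPM). The lists show a shift in the same comparison, with all compared genes at a median of 0.16. Of 22 Purkinje maturation genes, 12 were lower at E7 than at E8 and E9 and 0 higher, with a median of -1.06, and of 9 newborn neuron genes, 8 were higher and 0 lower, with a median of 1.55. Of 44 ion channel and receptor genes, 22 were lower and 2 higher. Against E6, where 16.2% of all compared genes were higher at E7 and 7.77% lower, the median was 0.09. Of 10 newborn neuron genes, 5 were higher at E7 than at E6 and 1 lower, with a median of 0.53. Of 19 Purkinje maturation genes, 7 were higher and 2 lower, with a median of 0.38. By its median, the newborn neuron list was thus higher at E7 than at E6 as well as than at E8 and E9. ROBO3 of that list went the other way against E6, with 241.5 CPM at E6 and 119.5 CPM at E7.

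The stages were also used to ask whether the main contrast, cells without against cells with NR2F2 or CDH6, had the same sign at other ages. Of the 29 genes named for the E7 contrasts, 25 had the same sign at E6 and 21 at E8 and E9. The share of all compared genes that kept their sign is not given here, so these counts are a description. Some of the shared signs were near 0 or rested on few UMIs. At E6, ST18 was at 0.04, ABI3BP rested on 0 and 2 UMIs and GPC3 on 3 and 3. At E8 and E9, NHLH1 rested on 3 and 2 UMIs. The sign was opposite at E6 for NEUROD6 (-0.14, from 6 and 5 UMIs), SPON1, CDH18 and FSTL4 (0.10). At E8 and E9 it was opposite for ROBO3 (-0.20, from 1 and 3 UMIs), SPON1, EFNA5 (-0.39), EBF2, CNTN5, GABRG3, ZBTB32 (-0.27) and PCDH11X (0.38). For DAB1 it was -1.49 at E6, -1.50 at E7 and -0.48 at E8 and E9, and for SHISA6 -0.67, -2.14 and -0.92. ANO4 was 1.38, 1.37 and 0.49 and THSD7A 0.79, 0.99 and 0.34. CDH18, at -1.50 at E7, was 0.38 at E6 from 32 and 16 UMIs and -1.33 at E8 and E9.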

How the data were processed

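The deposited files hold counts of UMIs per gene and cell, with the sample, well and transcript total of each cell in a cell table. Cell Ranger, Seurat and the chicken build GRCg7b are named per the submitters' processing notes, with no role given, and how the authors aligned reads and filtered cells is not given in the sources used here. Summing the 30108 genes and 101255521 UMIs by cell gave the transcript total of the cell table in 100% of cells. No doublet caller was run, so doublets must be taken as present.

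Counts were summed over each set of cells and divided by the set's total (CPM). A log2 ratio had 5 CPM added on both sides, and a gene was called at 1.5-fold with 50 UMIs over both sets and 20 CPM in the higher one. With 1 pool per stage there was no test. Intervals (exact Poisson, Clopper-Pearson at 95%) cover counting error only. Named genes were the 12 highest and 12 lowest with 1 sign in both sublibraries and all 3 wells, the 8 furthest above and below both positive sets, 6 each way against other stages, and each process-list gene past the fold. Thinning drew 2000 UMIs per cell, after the gate was set on all UMIs. Gene names came from the deposited table and positions from RefSeq. Clusters used 2000 variable genes, 30 principal components, 15 neighbours and Leiden at resolution 0.5. Statistics used scipy 1.17.1 under Python 3.11.15, tables used pandas 2.3.3 and numpy 2.4.6, and clustering used scikit-learn 1.9.0, igraph 0.11.9 and leidenalg 0.10.2. Before use, the ratio and fold limit were run on simulated Poisson sums with known 2-fold changes. That simulation had no variation between cells, clusters or depths and no choice of cells by counts of 0. It therefore covers the calculation only and not how reliable the called genes are. The members and lists were chosen with earlier results of these data known. Alternatives were the gate limits, the ceiling, thinning, a 2-fold limit, leaving out each sublibrary or well, 1000 variable genes and Leiden resolution 1. Chosen after seeing the data were W-linked subsets, cells of 4000 to 8000 UMIs, clusters left out and clustering without Z- and W-linked symbols. Some genes of the lists, counted in the totals, are not reported here by name.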

Additional observations from a re-analysis of the deposited data

Results flagged for a closer look

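For 4 genes the contrast between cells without and cells with NR2F2 or CDH6 had opposite signs at E7 and at another stage, in both sublibraries of each, and the difference between stages was not tested. SPON1, the matrix protein F-spondin, had a log2 ratio of 1.08 at E7, -0.95 at E6 (27.3 against 57.3 CPM) and -0.13 at E8 and E9 (773.6 against 847.1 CPM). EBF2 was 0.98 at E7 and -0.36 at E8 and E9 (2093 against 2690 CPM). CNTN5 was -1.60 at E7 and 0.41 at E8 and E9 (5111 against 3855 CPM). GABRG3 was -1.40 at E7 and 0.54 at E8 and E9 (846.8 against 581.1 CPM). The reversed value was small in 1 sublibrary for CNTN5 (0.03) and GABRG3 (0.09) at E8 and E9 and for SPON1 at E6 (-0.13). For SPON1 at E8 and E9 it was -0.09 and -0.17 in the sublibraries, and its E6 value rested on 33 and 48 UMIs. The sublibraries are splits of 1 pool per stage, and stage, embryo sex and depth cannot be told apart.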

How the results depend on the processing

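The share of 50.1% came to 47.6% with FOXP2 at 40 or more, 39.4% with no ceiling on transcripts, 46.7% in cells of 4000 or more UMIs, 66.3% thinned, 60.2% when 2 UMIs were needed to be positive and 52.8% in cells with a W-linked UMI. The 121 higher genes came to 22 with no ceiling, 193 with 2 UMIs needed and 11 at 2-fold, and the 182 lower ones to 49 at 2-fold. The 61 genes above both positive sets came to 11 with no ceiling, 114 with 2 UMIs needed, 97 in cells of 4000 to 8000 UMIs and 6 at 2-fold. The 59 below both came to 36 with no ceiling, 34 thinned and 16 at 2-fold. The causes were not tested. With 1 sublibrary left out, the share was 48.4 to 51.5%, the higher genes 163 to 173, the lower 194 to 265, those above both 76 to 83 and those below both 60 to 93. Of the named genes' log2 ratios under the alternatives, 483 moved by less than 1 SD between sublibraries, 155 moved by more, and 0 changed sign. The highest and lowest of these genes were chosen for the same sign in both sublibraries and every well. Leaving out a well or sublibrary could therefore hardly change their sign, and the SD rests on splits of 1 pool. The count of 0 is thus a description and not a measure of robustness. NHLH1 came to 0.51 without well A4 and SOX13 to 0.46 with FOXP2 at 40 or more. ST18 came to 0.57 without sublibrary 1, and all of these values lay under the fold. Without cluster 8, ROBO3 came to 1.01 and ST18 to 0.42. With 1 well left out, the share was 49.3 to 50.5%, the higher genes 126 to 163 and the lower 176 to 217. The 2 sets were compared within each well and sublibrary by sign only. No paired test was made, because wells and sublibraries are splits of 1 pool rather than separate embryos.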
